A study of Mus musculus with 45 samples.

Results

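The genes described here are G6pc, Pck1, Fbp1, Pcx, Slc37a4, Gckr, Pklr and Slc2a2, 8 genes of enzymes, transporters and a regulatory protein with which the liver makes, senses or uses glucose. They were chosen by role, and the measurements are the binding sites of REV-ERBα at them in mouse liver, mapped by chromatin immunoprecipitation with sequencing (ChIP-seq). A site is a peak whose summit lies inside the annotated span of a gene or within 50 kb of it. By this rule the 8 genes had 59 of the 27929 peaks listed at zeitgeber time 10 (ZT10, hour 10 of the light-dark cycle) and 0 of the 36 peaks listed at ZT22. The livers came from mice homozygous for REV-ERBα with a 3HA epitope tag at the endogenous gene, with no viral vector, and the protein was captured with anti-HA magnetic beads. The 4 samples of each time were pooled by the authors into 1 peak list, so the spread between livers is unknown and no test was run. The other 37 of the 45 samples, which include anti-HA on untagged liver, were not analysed here, so whether a site depends on the tag was not tested.

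REV-ERBα is a nuclear receptor of the circadian clock that lacks the activation helix of other receptors and represses genes by recruiting the corepressor NCOR1 and its histone deacetylase HDAC3. It binds the letters AGGTCA after an A/T-rich flank, a sequence it shares with the activating ROR receptors. In mouse liver the protein is abundant late in the light phase, near ZT10, and scarce near ZT22. Gluconeogenesis makes glucose from lactate, amino acids and glycerol during fasting, and glycolysis runs the other way after feeding, with enzymes that bypass each other at the irreversible steps.

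The promoters that hold the receptor's core letters are shown first, from RefSeq windows of GRCm38.p6 that run from 250 bases before to 50 after each annotated start. The 8 genes had 12 such windows, and both strands were searched for exact matches. AGGTCA was in 5 of the 12, 1 each at G6pc, Slc37a4, Pklr, Slc2a2 and Pcx, and in 16.3% of all 32851 windows. The longer TAGGTCA, which contains it, was in 3 of the 12, those of G6pc, Slc37a4 and Pklr, and in 2.61% of all windows. TGGGTCA was in 2 of the 12, at the inner annotated starts of Pcx and Pklr, and in 3.98% of all. The direct repeat bound by receptor dimers, AGGTCA followed by any 2 bases and AGGTCA again, was in 0 of the 12 and in 0.00913% of all. A match shows letters, not an occupied site, and the A/T-rich flank beyond these letters was not searched. The bases upstream of the gene span are printed 5′ to 3′ on the strand of the gene, the plus strand for each, with the matched letters in capitals. TGACCTA is TAGGTCA on the opposite strand.
G6pc, chr11:101367466-101367715: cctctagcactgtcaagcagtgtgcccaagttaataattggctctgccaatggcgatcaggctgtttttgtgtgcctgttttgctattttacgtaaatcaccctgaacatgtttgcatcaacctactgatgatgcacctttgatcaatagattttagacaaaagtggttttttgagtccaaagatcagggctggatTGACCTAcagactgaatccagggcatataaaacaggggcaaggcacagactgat
Slc37a4, chr9:44396696-44396945: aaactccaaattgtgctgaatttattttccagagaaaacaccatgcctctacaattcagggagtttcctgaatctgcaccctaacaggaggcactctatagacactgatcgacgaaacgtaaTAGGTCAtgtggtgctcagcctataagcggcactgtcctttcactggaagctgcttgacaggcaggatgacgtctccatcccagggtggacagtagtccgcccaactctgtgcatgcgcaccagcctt
Pklr, chr3:89135892-89136121: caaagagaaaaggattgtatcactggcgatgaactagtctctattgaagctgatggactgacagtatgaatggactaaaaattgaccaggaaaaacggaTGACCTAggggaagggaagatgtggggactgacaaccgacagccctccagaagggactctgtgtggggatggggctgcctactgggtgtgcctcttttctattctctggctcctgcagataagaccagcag
Slc2a2, chr3:28697653-28697902: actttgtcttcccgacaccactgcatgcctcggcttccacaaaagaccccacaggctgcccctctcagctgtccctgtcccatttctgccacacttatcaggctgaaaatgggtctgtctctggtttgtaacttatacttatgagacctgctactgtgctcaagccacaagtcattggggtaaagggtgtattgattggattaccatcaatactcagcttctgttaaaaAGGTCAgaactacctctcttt
All 4 stretches are next to a start that lay under a ZT10 peak, while the summits of those peaks lay elsewhere, as given below.

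All 8 genes had at least 1 ZT10 summit in reach, as did 70.5% of the 21631 protein-coding genes of the autosomes and X. Many of those genes may be silent in liver, where RNA was not measured here, so a difference from other liver genes was not tested. The number ran from 2 at Gckr to 14 at Pcx with a median of 7.50, against a median of 2 over all genes. Per 100 kb of searched sequence the median was 6.61 summits, against 1.60 over all genes. The strongest fold per gene, the authors' value for the height of a summit over its local background, had a median of 18.9, against 10.0 over the genes that had a summit. A summit of fold 10 or more was found at 6 of the 8 genes, G6pc, Pck1, Fbp1, Pcx, Gckr and Slc2a2, and at 35.3% of all protein-coding genes. Slc37a4 and Pklr had weak sites only. With the gene span alone, 7 genes had a summit and the median fold was 7.13, since many strong sites lay outside the genes.

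**Figure D1:**
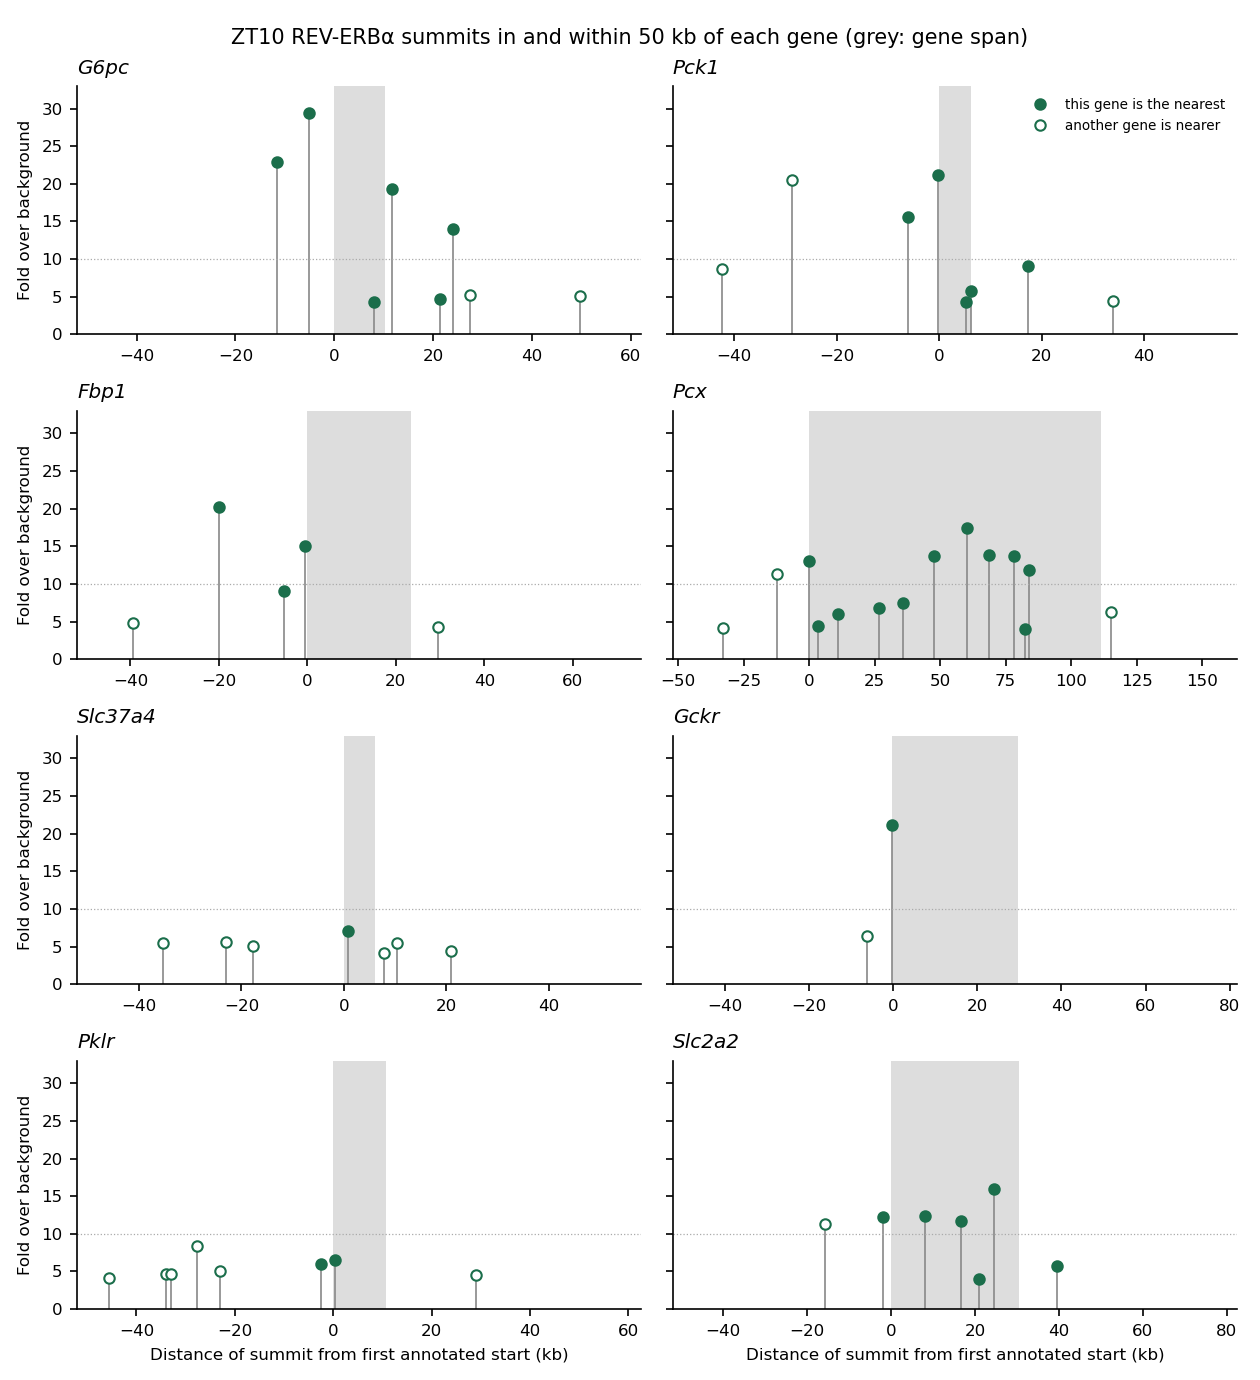
Fold over local background (vertical axis) of each of the 59 ZT10 summits against its distance in kb from the first annotated start of the gene, in the direction of transcription (horizontal axis), 1 panel per gene. Filled points have the named gene as the nearest protein-coding gene, open points lie nearer to another gene, the grey band is the gene span and the dotted line marks a fold of 10; G6pc, Pck1, Fbp1, Pcx and Slc2a2 each have 2 to 7 points above it, Gckr has 1, and Pklr and Slc37a4 have 0.

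The last step of glucose production had the tallest sites. G6pc encodes the catalytic subunit of glucose-6-phosphatase, which makes free glucose in the endoplasmic reticulum, and spans 101367716 to 101377903 on chromosome 11 (mm10). Its strongest summit lay 5.08 kb upstream of the start with a fold of 29.4, made of 635 fragments (95% interval 587 to 686, exact Poisson, counting error only). It ranked 265 of 27929 in the list, and its peak, 11994 bp wide and wider than 99.3% of ZT10 peaks, ran over the gene start. A second peak, 9.11 kb wide, had its summit 11.7 kb upstream with a fold of 22.9. Downstream, summits 1.46 and 13.8 kb past the gene had folds of 19.3 and 14.0. These 4 strong summits lay within 35.7 kb and had G6pc as the nearest gene. The summit inside the gene had a fold of 4.28, near the lowest of the list at 4.01. The other 3 summits had folds of 4.73 to 5.29, and 2 of these were nearer to Aarsd1.

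Slc37a4 encodes the transporter that carries glucose 6-phosphate to that enzyme, and its sites were far weaker. Its strongest summit, with a fold of 7.13 and 151 fragments (128 to 177), lay inside the gene between annotated starts, 0.572 kb from the nearest. The peak was 5.91 kb wide and covered all 3 annotated starts. The other 6 summits had folds of 4.14 to 5.66, and each lay nearer to a neighbour, namely Vps11, Hyou1, Trappc4 or Ccdc84. The intervals of the strongest summits of the catalytic subunit and the transporter did not overlap.

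Pck1 encodes the cytosolic phosphoenolpyruvate carboxykinase, which makes phosphoenolpyruvate from oxaloacetate, and spans 173153073 to 173159274 on chromosome 2. Its strongest summit lay 303 bp upstream of the start, with a fold of 21.2 and 458 fragments (417 to 502). A second peak, 8.31 kb wide, had its summit 6.04 kb upstream with a fold of 15.6. Another strong summit of fold 20.5 lay 28.7 kb upstream, inside the predicted gene Gm40011, so its place does not tie it to Pck1. Inside the gene the folds were 4.24 and 5.75, and 11.1 kb downstream a summit had 9.06. The strong sites of Pck1 were thus on the upstream side.

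Fbp1 encodes fructose-1,6-bisphosphatase, the bypass of phosphofructokinase, and lies on the minus strand of chromosome 13 from 62864753 to 62888298. Its start lay under a peak 13.1 kb wide, wider than 99.5% of ZT10 peaks, with its summit 428 bp upstream, a fold of 15.1 and 325 fragments (291 to 362). The strongest summit was 20.1 kb upstream, with a fold of 20.2 and 436 fragments (396 to 479). Between them a summit 5.25 kb from the start had a fold of 9.01. A summit of 4.33 on the downstream side lay 322 bp from Fbp2, the neighbouring gene of the muscle enzyme, and one of 4.88 was nearest to Aopep.

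Pcx encodes pyruvate carboxylase, the mitochondrial enzyme that makes oxaloacetate, and is the longest of these genes, at 111 kb on chromosome 19 from 4510472 to 4621752. It had 14 summits, and 99.2% of protein-coding genes had fewer. At 6.63 per 100 kb its density was close to that of the shorter G6pc, at 7.26. Pcx has 2 annotated starts 83.8 kb apart, and each had a summit beside it. The outer start had a fold of 13.1 at 251 bp upstream, and the inner start had 11.9 at 133 bp upstream. The strongest summit, with a fold of 17.5 and 377 fragments (340 to 417), lay 23.8 kb before the inner start, inside the gene. Further summits 36.3, 15.1 and 5.73 kb before the inner start had folds of 13.7, 13.9 and 13.7. These 3 were indistinguishable in height within counting error, with fold intervals of 12.2 to 15.3, 12.5 to 15.4 and 12.2 to 15.3. The first 35.9 kb of the gene body held 4 summits of fold 4.37 to 7.54. A summit of 11.3 upstream of the outer start lay inside 2010003K11Rik.

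On the side of glucose uptake and use, Gckr had the tallest site. It encodes a liver regulatory protein that sets glucose phosphorylation by the level of sugar phosphates, and spans 31297266 to 31327302 on chromosome 5. Its strongest summit lay 146 bp upstream of the annotated start and inside the promoter window, with a fold of 21.1 and 455 fragments (414 to 499). That window held none of the 4 motifs searched. The only other summit in reach, of fold 6.4, lay inside the neighbouring gene Ift172. The density at Gckr, 1.54 summits per 100 kb, was below the 1.60 of all genes.

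Slc2a2 encodes GLUT2, the glucose transporter of the hepatocyte membrane, and spans 28697903 to 28728361 on chromosome 3. Its strong summits were spread along the gene and upstream of it. The strongest, with a fold of 16.0 and 345 fragments (310 to 383), lay 24.6 kb past the start and inside the span. Summits 8.1 and 16.6 kb past the start had folds of 12.4 and 11.7, and a summit 1897 bp upstream had 12.3 under a peak that covered the start. A further summit 15.7 kb upstream had a fold of 11.3 and lay 11.7 kb from the gene Tnik. Neighbouring summits among these 5 were 7.98 to 13.8 kb apart, and the 5 lay within 40.2 kb. The last 4 in this account had overlapping fold intervals, from 9.91 to 14.0 in all.

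Pklr encodes the liver pyruvate kinase, the final enzyme of glycolysis, and spans 89136122 to 89146815 on chromosome 3. It had 8 summits, as many as G6pc, but all were weak. A summit beside its starts, 126 bp upstream of the inner one, had a fold of 6.58 and 139 fragments (117 to 164), and one 2.45 kb upstream of the gene had 5.98. The strongest summit in reach, with a fold of 8.42 and 179 fragments (154 to 207), lay 27.7 kb upstream and 6501 bp from Fdps, a gene of cholesterol synthesis. Another 3 upstream summits of 4.60 to 5.11 were also nearest to Fdps. Pklr was the only gene of the 8 whose strongest summit had another gene nearest.

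**Figure D2:**
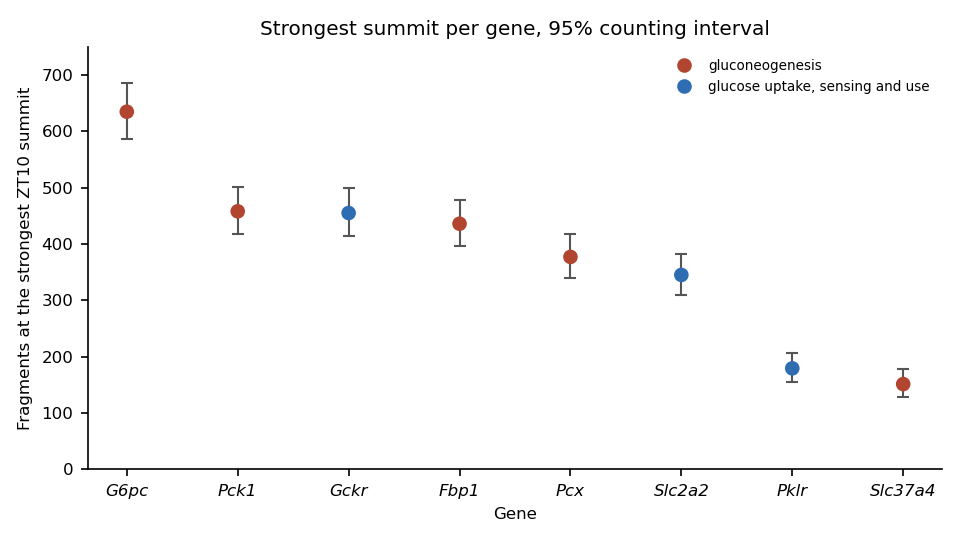
Number of fragments at the strongest ZT10 summit (vertical axis) for each of the 8 genes (horizontal axis), with exact Poisson 95% intervals that cover counting error only. G6pc stands at 635, Pck1, Gckr, Fbp1, Pcx and Slc2a2 run from 458 down to 345, and Pklr and Slc37a4 stand at 179 and 151. The summit shown for Pklr lies nearest to Fdps.

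By height the strongest sites ran in the order G6pc (fold 29.4), Pck1 (21.2), Gckr (21.1), Fbp1 (20.2), Pcx (17.5), Slc2a2 (16.0), Pklr (8.42) and Slc37a4 (7.13). Neighbours in this order had overlapping intervals, except G6pc against Pck1 and Slc2a2 against Pklr. The order did not follow the direction of the pathway, since each side held both tall and low sites. The 5 genes of gluconeogenesis had a median strongest fold of 20.2 with a range of 7.13 to 29.4. The 3 genes of uptake, sensing and use had a median of 16.0 with a range of 8.42 to 21.1. The 8.42 of Pklr was at the summit nearest to Fdps. The strongest summit with Pklr as the nearest gene had 6.58, below the 7.13 of Slc37a4, with overlapping intervals. Among protein-coding genes with a summit, 97.1% had a lower strongest fold than G6pc, 89.7% than Pck1 and 29.8% than Slc37a4.

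**Figure D3:**
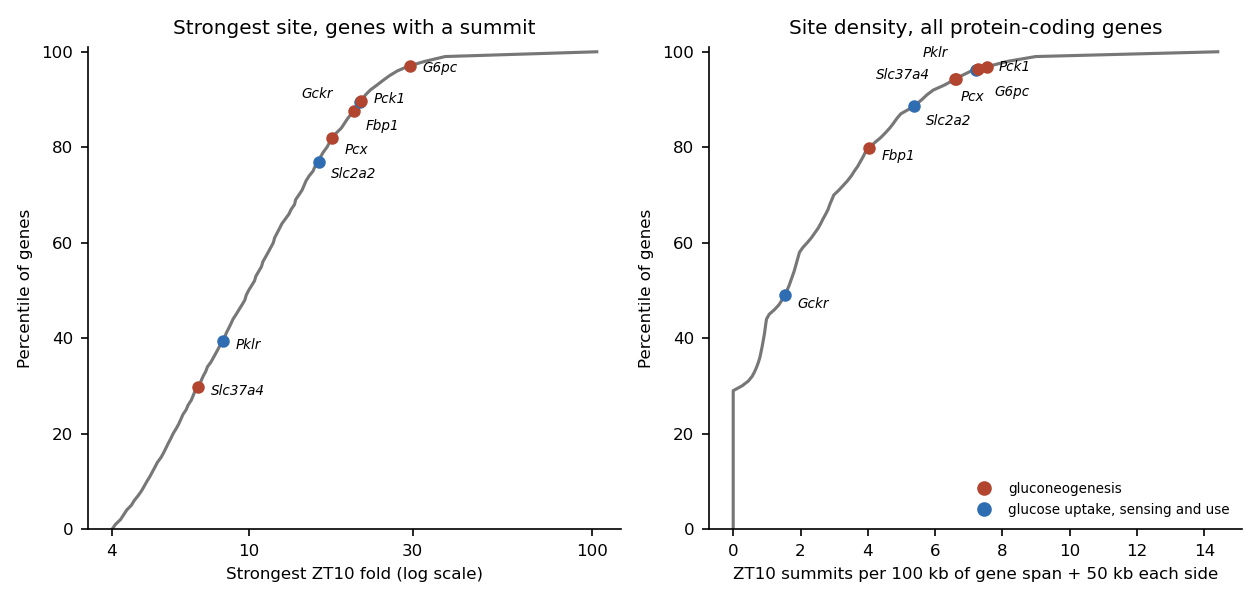
Left, percentile of the strongest ZT10 fold (log axis) among protein-coding genes with a summit in reach; right, percentile of the number of summits per 100 kb among all protein-coding genes. The grey line is the distribution over genes and the points are the 8 genes, red for gluconeogenesis and blue for uptake, sensing and use. Pklr and Slc37a4 are dense but low (7.23 and 6.6 per 100 kb, folds of 8.42 and 7.13), and Gckr is tall but sparse (21.1 and 1.54 per 100 kb). The density counts summits nearer to other genes. Pklr was the nearest gene to 2 of its 8 summits and Slc37a4 to 1 of its 7.

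The cover of gene starts was counted as well, for genes chosen with earlier results of these data known. All 12 annotated starts of the 8 genes lay under a ZT10 peak. Counted by gene, 8 of 8 had at least 1 start under a peak, as did 38.0% of the 17274 protein-coding genes with an annotated start. A summit within 1 kb of a start was found at 6 of the 8 genes, and at 34.5% of the 17274. The exceptions were G6pc, with its nearest summit 5077 bp away, and Slc2a2, at 1897 bp. Both measures were chosen after values had been seen. Of the 59 summits, 7 were within 1 kb of a start of their gene, 16 were inside the span and farther from a start, 22 were upstream beyond 1 kb and 14 were downstream. The 7 near starts had a median fold of 13.1, and the 16 deeper in the genes 7.15. Of the 22 summits with a fold of 10 or more, 16 lay over 5 kb from any annotated start of their gene. The strong sites were wide, with a median of 4.75 kb against 1.54 kb for the 37 weaker ones and 1679 bp for the whole list. The whole list holds peaks of all heights, with a median fold of 6.81. Whether the strong sites were wider than other peaks of their height was not tested. Since each peak has 1 summit in the list, a wide peak can hold more than 1 bound element.

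The reach of 50 kb took in sites of neighbours. The named gene was the nearest to 35 of the 59 summits, with a median fold of 11.9, and another gene was nearer to 24, with a median fold of 5.09. Among the 22 strong summits it was the nearest to 19. At the edge of the reach, the last summits inside had folds of 8.74 (Pck1, at 42.3 kb) and 4.10 (Pklr, at 45.5 kb), and the first outside had 6.81 (G6pc, at 51.5 kb) and 5.98 (Slc37a4, at 52.9 kb).

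The time comparison asks whether these sites were also bound at ZT22. None of the 8 genes had a ZT22 summit in reach, and none of their 59 ZT10 summits lay under a ZT22 peak. Over all protein-coding genes, 0.157% of all protein-coding genes, 34 of 21631, had one in reach. The ZT22 list had no peak on the chromosomes of Pck1 and Fbp1. For the other 6 genes the nearest ZT22 summit lay 12.3 Mb (G6pc) to 131 Mb (Slc2a2) away. The pools had similar depth, with ZT22 at 0.970 times ZT10 if the same control served both, and the lowest listed fold at ZT22 was 4.08. Sites of this height were seldom in the ZT22 list anywhere. Of 1075 ZT10 peaks with a fold from 20 to below 30, 2 (0.186%) were overlapped by a ZT22 peak, and of 7293 from 10 to below 30, 5 (0.0686%) were. Of 20393 with a fold from 4 to below 10, the range of 37 of the 59 summits here, 2 (0.00981%) were. A site missing from a list had no signal past the caller's limits, which is not a measured value of 0.

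A list of 30 other genes of glucose metabolism, chosen by role, was measured the same way. All 30 had a ZT10 summit in reach, as did 70.5% of all protein-coding genes. A summit with a fold of 10 or more was found at 23 (76.7%), against 6 of 8 (75.0%) here and 35.3% of all. The median strongest fold of the 30 was 14.7 and their median density 4.51 summits per 100 kb. The tallest sites were at Mlxipl (38.0), which encodes the glucose-sensing factor ChREBP, at Ldha (34.9), lactate dehydrogenase, and at Mpc1 (29.1), a subunit of the mitochondrial pyruvate carrier. Mpc2, the partner subunit, had 25.4 at a summit inside Dcaf6, and Pfkfb3, which sets fructose 2,6-bisphosphate, had 25.4. Fbp2 shared its site of 20.2 with Fbp1, to which it was nearer. The low end held Pgk1 (4.33), Pfkfb1 (4.88), Pkm (5.34), Tpi1 (6.99) and Pfkl (7.01), all below the 7.13 of Slc37a4. Of the 27 with an annotated start, 25 (92.6%) had one under a peak, the exceptions being Pck2 and Pkm. The share over all protein-coding genes with a start was 38.0%. A summit within 1 kb of a start was found at 19 of the 27 (70.4%), against 6 of 8 (75.0%) here and 34.5% of all.

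**Figure D4:**
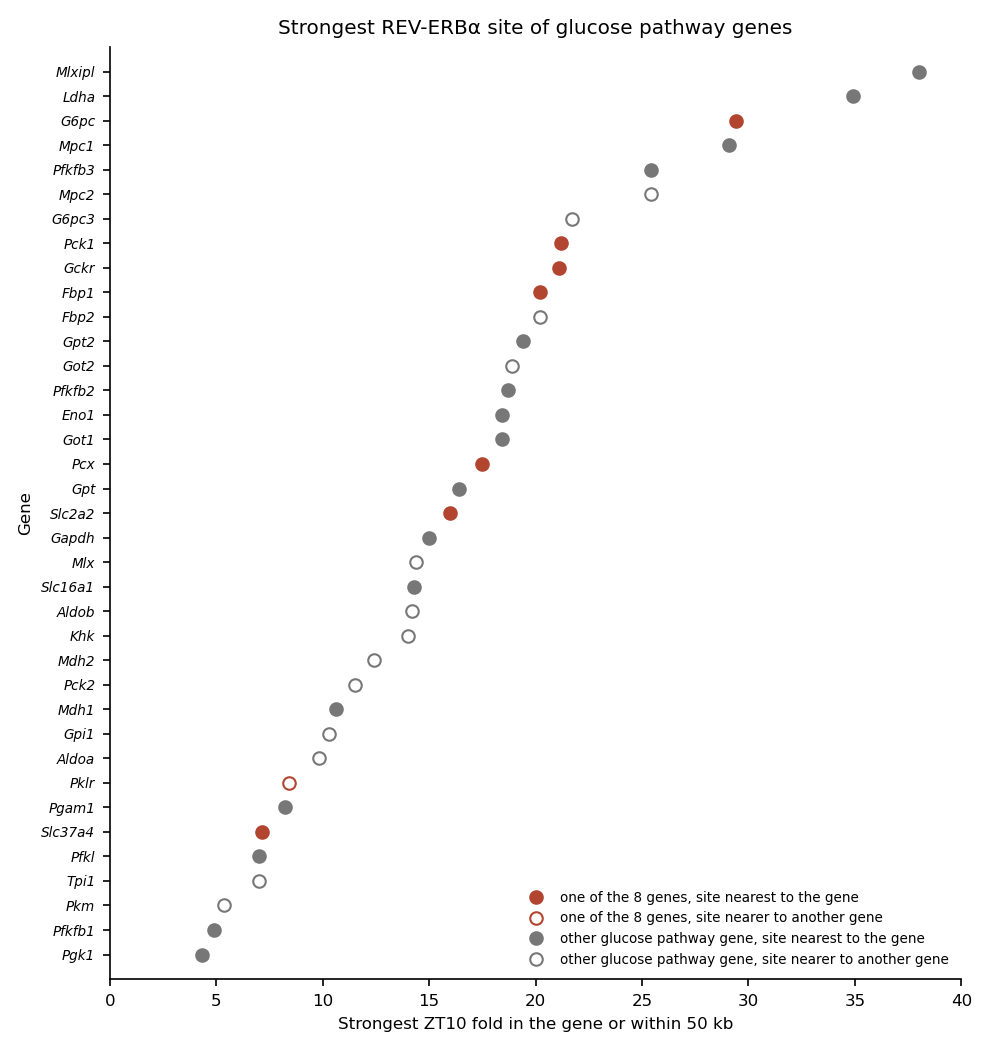
Strongest ZT10 fold in the gene or within 50 kb (horizontal axis) for the 8 genes in red and the other enzymes, transporters and regulators of glucose metabolism in grey, without 1 gene of the list that is not reported, ordered by fold. Open points mark a summit that lies nearer to another gene. The 8 genes are spread through the range of the others, from 29.4 at G6pc to 7.13 at Slc37a4.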

How the data were processed

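Each time has 1 deposited list of peaks, for which the authors pooled 4 samples, per the labels. Tools named in the submitters' processing notes, without role or order, include MACS2 2.1.2, BWA 0.7.17, SAMtools 1.9 and Picard 2.18.12, and the build named is mm10. Which library served as control is not given there. Each deposited fold is a ratio of summit height to local background and is the authors' own value. The deposited lists also hold the −log10 p and −log10 q of the authors' peak caller. The score deposited by the authors, 10 times the −log10 q, was not used.

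Gene spans and starts came from RefSeq tables of GRCm38.p6, the assembly behind mm10, and all 8 genes and the 30 of the pathway list matched. The genes and lists were chosen with earlier results of these data known. All summits in reach of the 8 genes were taken, and those of fold 10 or more, or the strongest of a gene, were described in full. From the pathway list the 5 of highest fold were named by rule, while Fbp2, the 5 lowest and those with no start under a peak were added after values were seen. The counts and medians of the list are over all 30, of which 1 is not reported here by name. The alternatives were other reaches, a stricter −log10 q, 1 gene per summit and other distances to starts.

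Fragments at a summit were solved from its fold and −log10 p, with a pseudocount of 1 and a Poisson tail, and all 59 summits came within 0.01 of the −log10 p. Intervals cover counting error only, since fragments may be PCR copies. The steps were tested on simulated data (Python 3.11.15, scipy 1.17.1).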

Additional observations from a re-analysis of the deposited data

How the results depend on the processing

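No paired analysis was possible because each time has a single list made from pooled livers, which also leaves no replicate to leave out. The number of genes with a ZT10 summit stayed at 8 under each alternative except the gene span alone, where it was 7, as Fbp1 had no summit inside. No alternative gave a ZT22 summit at these genes. The number of summits depended on the reach. It was 35 at 10 kb, 26 at 2 kb and 20 in the gene span alone, against 59 at 50 kb. It was also 35 when a summit was given to the nearest gene only. The median strongest fold was 16.8 at 10 kb, 16.8 at 2 kb and 7.13 in the span alone, since fewer sites were in reach. These 7 values moved, a count by over 1.5 times or the median outside its counting interval of 17.1 to 20.8, and the other 35 values did not. The number of genes with a summit within 1 kb of a start, 6, was 5 at 500 bp and 7 at 2 kb. The alternatives on gene starts and the one without summits inside other genes, which kept 48 summits, were chosen after seeing the data. The ZT10 list holds no summit under 83 fragments or a fold of 4.01, and the ZT22 list none under 82 fragments or 4.08, so weaker sites are not described.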
